A study of Mus musculus with 8 samples.

Results

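The hearts compared here came from the 2 kinds of control mouse in a study of Elmsan1, whose product belongs to MiDAC, a chromatin complex that removes acetyl groups from histones. The floxed mice were Elmsan1 fl/fl and carried no Cre, and the Cre-only mice were aMHC-Cre+/-, with no floxed allele and with Cre recombinase expressed in cardiomyocytes from the αMHC (Myh6) promoter. The comparison takes 4 of the 8 hearts in the series, 2 floxed and 2 Cre-only, and every gene in the table. The other 4 hearts, Elmsan1 fl/fl with aMHC-Cre+/- and called cKO below, carried both alleles and entered the fit to estimate the spread between hearts. They also entered the filter and the scaling. All mice were 8-week-old males, 1 whole-heart RNA-seq library was made per heart, and the sources used here give no strain, no Cre founder line and no date, hour or order of collection. Genotype and anything else the mice of a group had in common cannot be told apart. The comparison addresses what separates the controls before either is set against the knockout.

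Levels are in CPM, each heart's counts scaled to a common library size, and a difference is a log2 fold change of Cre-only over floxed. The standard error (SE) given with a difference was worked back from the test statistic. A gene is called when its adjusted p is under 0.05 in edgeR's quasi-likelihood test over all genes tested, with 2 hearts in each of the groups compared. Unless another fit is named, calls are those of the fit of all 8 hearts. Libraries held 24008853 and 22145156 estimated counts in the floxed hearts and 25833259 and 21713560 in the Cre-only hearts. Mitochondrial transcripts took 25.5% and 28.4% against 26.9% and 29.1% (exact two-sided permutation p = 0.667, smallest possible 0.333). The targeted gene, Elmsan1 (chr12:84149176-84218881, GRCm38), was at 27.6 and 25.6 CPM in the floxed hearts and 28.6 and 25.2 CPM in the Cre-only hearts, so the controls overlapped, with a log2 fold change of 0.02 ± 0.15 SE (edgeR adjusted p = 1). It was at 11.99 to 15.5 CPM in the cKO hearts. Genes that define ventricular cardiomyocytes, such as Myl2, Myl3, Tnni3, Tnnt2 and Mb, were abundant in all 4 control libraries. Cre-only replicate 1 stood apart from the other controls in its T-cell, proliferation and clock genes, whose values are given below.

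Few genes were called between the controls, and in the fit of all 8 hearts 11 of the 15 were genes of the immediate early response, lower in the Cre-only hearts. Of 15289 genes tested, 15 were called (0.0981%), 14 lower (0.0916%) and 1 higher (0.00654%) in the Cre-only hearts. Of the 14 that fell, 11 belonged to a list of 33 immediate early genes, and the others were Otud1, Ptgs2 and a processed pseudogene, Rpl35a-ps4. At an unadjusted p under 0.05 there were 526 genes (3.44%), 221 higher (1.45%) and 305 lower (1.99%). For comparison, the same fit called 6559 genes (42.9%) in cKO against floxed and 6484 (42.4%) in cKO against Cre-only, contrasts that reuse these control hearts. The share of immediate early genes among the calls depended on the fit: they were 23 of 62 genes called by DESeq2 (0.406% of all genes), 11 of 18 by limma voom (0.118%), 12 of 31 in the unfiltered table (0.128% of the larger number of genes tested there) and 6 of 32 in a fit of the 4 control hearts alone (0.222%). That last fit kept 7 of the 15 calls. With 1 heart left out, 9 were called without Cre-only replicate 1, 9 without Cre-only replicate 2 and 7 without floxed replicate 2.

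Most of the transcriptome lay close together in the 4 hearts. Among 8148 genes with a mean of at least 10 CPM in the controls, the median absolute log2 difference between the groups was 0.0849, 97.6% were within 0.5, and 53 differed by a log2 value of 1 or more. Heart by heart, among genes at or above that level, 20 differed 2-fold or more between the 2 floxed hearts and 54 between the 2 Cre-only hearts. Across groups the 4 possible pairs differed at 60 to 81 such genes. By this count the Cre-only pair was nearly as far apart as the closest pair across genotypes. By the median absolute log2 difference it was farther apart, at 0.136, than any pair across genotypes (0.109 to 0.124), and the floxed pair was the closest at 0.0836.

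**Figure D1:**
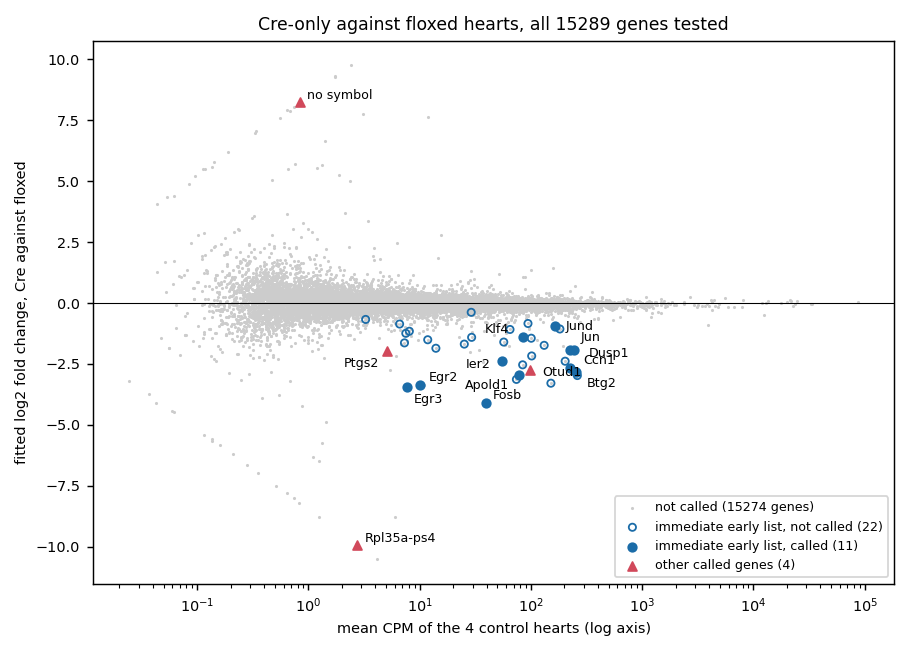
Each point is 1 of the 15289 genes tested, placed by its mean level in the 4 control hearts (CPM, log axis) and its fitted log2 fold change in Cre-only against floxed hearts; blue circles are the immediate early list (filled when called), red triangles the 4 other called genes and grey points the genes not called. The 33 immediate early genes all lie below 0, from -4.08 to -0.38, while most genes of similar level lie near the line; the fitted values of Rpl35a-ps4 and of the gene with no symbol rest on a group with 0 counts and give no size.

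Immediate early genes are switched on within minutes of a stimulus, from regulatory proteins already present in the cell, and their short-lived transcripts fall again soon after. In the heart they answer stretch, adrenergic and endothelin signalling, ischaemia and growth factors, and in any tissue they also answer handling. They include transcription factors of the AP-1, EGR, KLF and NR4A families, which pass the signal on, feedback genes that brake it, and secreted or membrane proteins. Serum response factor and the cyclic AMP response factor CREB are well-known activators of many of them.

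The promoters of 5 members are shown because these genes had large differences, that of Fos without a call, and because their sequences hold the letters of the cyclic AMP element or of its shorter form. Each is the 250 bases before the annotated start, 5′ to 3′ on the gene's strand, from RefSeq on GRCm38.p6, and capitals mark TGACG or its reverse complement CGTCA (in Btg2 and once in Dusp1 the run TGACGTCA, in which both overlap). The starts are RefSeq's and differ from those of GENCODE, used for gene positions; the GENCODE span of Dusp1 runs further upstream.
Fosb (chr7:19310046-19310295, minus strand): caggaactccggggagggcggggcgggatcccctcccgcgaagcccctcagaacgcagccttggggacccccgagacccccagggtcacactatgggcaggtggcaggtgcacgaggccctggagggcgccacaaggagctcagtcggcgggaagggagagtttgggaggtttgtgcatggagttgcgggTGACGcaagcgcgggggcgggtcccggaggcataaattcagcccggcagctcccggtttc
Fos (chr12:85473640-85473889, plus strand): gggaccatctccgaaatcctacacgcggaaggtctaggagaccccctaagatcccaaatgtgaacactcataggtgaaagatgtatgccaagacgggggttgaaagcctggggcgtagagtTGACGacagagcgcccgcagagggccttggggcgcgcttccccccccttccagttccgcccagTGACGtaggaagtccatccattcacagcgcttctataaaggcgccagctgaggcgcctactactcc
Btg2 (chr1:134079156-134079405, minus strand): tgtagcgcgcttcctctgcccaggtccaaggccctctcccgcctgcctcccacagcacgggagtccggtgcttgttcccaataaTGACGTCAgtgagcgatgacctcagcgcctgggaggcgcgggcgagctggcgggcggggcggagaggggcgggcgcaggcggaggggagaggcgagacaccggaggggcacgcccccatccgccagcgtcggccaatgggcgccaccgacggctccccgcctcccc
Dusp1 (chr17:26508473-26508722, minus strand): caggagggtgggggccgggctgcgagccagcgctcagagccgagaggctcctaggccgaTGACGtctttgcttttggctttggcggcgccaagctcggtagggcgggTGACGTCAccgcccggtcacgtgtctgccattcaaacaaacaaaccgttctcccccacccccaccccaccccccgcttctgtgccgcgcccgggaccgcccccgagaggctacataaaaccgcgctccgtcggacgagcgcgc
Ccn1 (chr3:145649986-145650235, minus strand): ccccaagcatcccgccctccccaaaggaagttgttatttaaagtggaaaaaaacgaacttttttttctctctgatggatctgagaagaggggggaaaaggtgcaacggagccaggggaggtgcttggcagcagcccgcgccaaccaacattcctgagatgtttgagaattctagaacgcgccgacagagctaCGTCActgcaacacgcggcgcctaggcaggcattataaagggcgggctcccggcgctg

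Promoters on chromosome 18 and entries of another length were left out, both for the list and for the set of all promoters. Each gene had 1 window, before its most upstream RefSeq start. The window of Jund, for example, was chr8:70697489-70697738, upstream of its GENCODE start at 70698949. The RefSeq promoters that remained matched 26 of the 33 list members, so an unmatched member may still have a RefSeq promoter. The element TGACGTCA was found in 2 of the 26 (7.69%), Btg2 and Dusp1, against 1.6% of 27026 mouse promoters of the same length. Its shorter form, TGACG on either strand, which also counts every full element, was in 14 of the 26 (53.8%) against 17.8% of all. The CArG box, the sequence bound by serum response factor, was in 1 (3.85%), Zfp36, against 1.41%, and the E-box CACGTG in 6 (23.1%) against 6.04%. A match is a description of letters in this window, and no binding was measured in these hearts. Elements outside the window, or in promoters left out, were not counted.

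All 33 members of the list were tested, 11 were called lower and none higher, where 0.0916% of all genes were called lower. The list was chosen with earlier results of these data known, so its shares beside those of all genes are a description and not a test. All 33 had a log2 fold change under 0, a sign shared by 50.2% of all genes, and their median was -1.73 where that of all genes was 0.00. In 30 members both Cre-only hearts lay below both floxed hearts, which held for 19.1% of all genes; the exceptions were Nr4a3, Ier3 and Myc. An unadjusted p under 0.05 was reached by 29 of the 33, beside 3.44% of all genes. DESeq2 called 23 members lower and limma voom 11, while the fit of the 4 controls alone called 6. Without cKO replicate 2, which bears on the spread, the filter and the scaling, 6 members were called lower, with 15191 genes tested. The list's median log2 fold change was -1.97 without Cre-only replicate 2 and -1.58 without floxed replicate 2. Summed over the list, levels were 4281 and 5452 CPM in the floxed hearts and 1256 and 1160 CPM in the Cre-only hearts. Both floxed sums were far above both Cre-only sums.

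**Figure D2:**
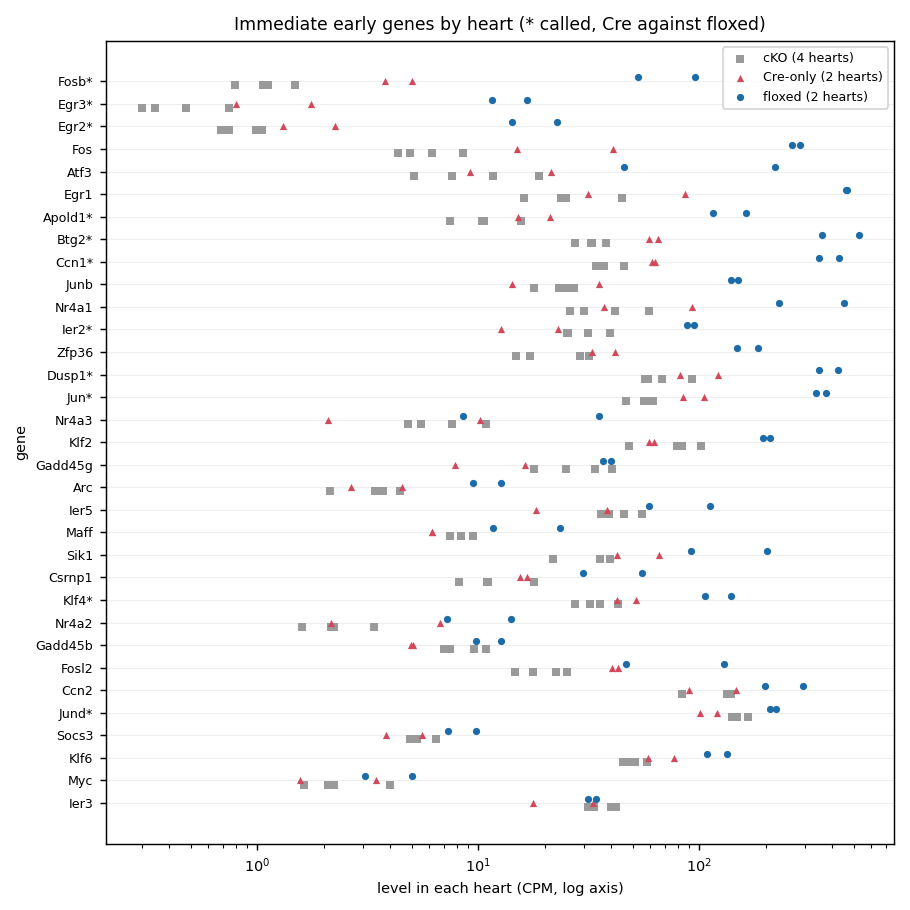
Each row is 1 of the 33 immediate early genes, ordered by log2 fold change, and each mark is 1 heart's level (CPM, log axis): blue circles floxed, red triangles Cre-only, grey squares cKO, with an asterisk on the 11 genes called in Cre-only against floxed. The floxed hearts lie to the right of the Cre-only hearts in 30 rows, and the rows of Nr4a3, Myc and Ier3 overlap.

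Of 8 AP-1 and related factors, which pair as dimers on DNA, 3 were called, all lower. Fosb (chr7:19302696-19310051), a partner of JUN proteins, was at 52.9 and 95.5 CPM in the floxed hearts and 3.79 and 5.01 CPM in the Cre-only hearts. No Cre-only heart came near a floxed one, and Fosb fell 16.9-fold (log2 fold change -4.08 ± 0.31 SE, edgeR adjusted p = 0.000622). Jun (chr4:95049034-95052222), the main JUN partner, was at 337 and 377 CPM in the floxed hearts and 84.8 and 105 CPM in the Cre-only hearts, with no overlap, and fell 3.76-fold (log2 fold change -1.91 ± 0.16 SE, edgeR adjusted p = 0.000622). Jund (chr8:70698949-70700616), a JUN protein present at a more constant level in resting cells, was at 208 and 223 CPM in the floxed hearts and 121 and 101 CPM in the Cre-only hearts and fell 1.95-fold (log2 fold change -0.96 ± 0.14 SE, edgeR adjusted p = 0.0271). Fos itself was at 262 and 287 CPM in the floxed hearts and 40.9 and 15.02 CPM in the Cre-only hearts, apart by far but with its Cre-only hearts more than 2-fold from each other, and it was not called (log2 fold change -3.29 ± 0.48 SE, edgeR adjusted p = 0.156). It was called without Cre-only replicate 1 (edgeR adjusted p = 0.0076) and without Cre-only replicate 2 (edgeR adjusted p = 0.0479). It was not called without floxed replicate 1 (edgeR adjusted p = 0.384), without floxed replicate 2 (edgeR adjusted p = 1) or in the 4 control hearts alone (0.577). Junb (149 and 139 CPM against 35.2 and 14.2 CPM), Atf3, a stress-induced repressor (45.5 and 221 CPM against 9.22 and 21.3 CPM), Maff (11.6 and 23.4 CPM against 6.15 and 6.16 CPM) and Fosl2 (46.6 and 129.9 CPM against 40.4 and 42.8 CPM) also had both Cre-only hearts below both floxed hearts and were not called. Over the 8 genes the log2 fold changes ran from -4.08 to -0.96.

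Of 9 zinc finger and orphan receptor factors, 3 were called, all lower. Egr2 (chr10:67535475-67542188) was at 14.2 and 22.7 CPM in the floxed hearts and 2.24 and 1.30 CPM in the Cre-only hearts and Egr3 (chr14:70077203-70082614) at 11.6 and 16.6 CPM in the floxed hearts and 1.75 and 0.801 CPM in the Cre-only hearts. Both are EGR proteins, induced downstream of mitogen signalling. Egr2 fell 10.2-fold (log2 fold change -3.36 ± 0.32 SE, edgeR adjusted p = 0.00131) and Egr3 10.8-fold (log2 fold change -3.43 ± 0.39 SE, edgeR adjusted p = 0.00749). Egr1, the most studied of the family, was at 469 and 460.3 CPM in the floxed hearts and 86.7 and 31.2 CPM in the Cre-only hearts; the groups were far apart, but the Cre-only hearts differed from each other and the gene was not called (log2 fold change -2.97 ± 0.62 SE, edgeR adjusted p = 0.608). Klf4 (chr4:55527143-55532466), a Krüppel-like factor of endothelium and smooth muscle, was at 106 and 139 CPM in the floxed hearts and 42.5 and 51.8 CPM in the Cre-only hearts and fell 2.60-fold (log2 fold change -1.38 ± 0.21 SE, edgeR adjusted p = 0.0459). Its relative Klf2, which endothelial cells raise under flow, was at 210.2 and 195 CPM in the floxed hearts and 62.7 and 59.1 CPM in the Cre-only hearts, with tight pairs and no overlap, and did not pass the threshold (log2 fold change -1.73 ± 0.28 SE, edgeR adjusted p = 0.116). The orphan receptor Nr4a1 (229.5 and 454 CPM against 93.3 and 37.1 CPM) and its relative Nr4a2 (7.19 and 14.04 CPM against 6.68 and 2.15 CPM) did not overlap between groups, while Nr4a3 did (8.56 and 35.1 CPM against 2.09 and 10.2 CPM), and none of the NR4A genes was called. Klf6 was at 109 and 133 CPM in the floxed hearts and 58.5 and 76.7 CPM in the Cre-only hearts (log2 fold change -0.84 ± 0.17 SE) and was not called.

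Of 8 brake, feedback and stress genes, 2 were called, both lower. Btg2 (chr1:134075170-134079120), an antiproliferative gene that promotes mRNA deadenylation, was at 359.7 and 527 CPM in the floxed hearts and 65.3 and 58.99 CPM in the Cre-only hearts. It fell 7.13-fold (log2 fold change -2.83 ± 0.20 SE, edgeR adjusted p = 0.000177). Dusp1 (chr17:26505590-26562128), a phosphatase that switches off MAP kinases, was at 423 and 349 CPM in the floxed hearts and 121 and 81.9 CPM in the Cre-only hearts and fell 3.80-fold (log2 fold change -1.93 ± 0.26 SE, edgeR adjusted p = 0.0331). Zfp36, which marks AU-rich mRNAs for decay, was at 184 and 148 CPM in the floxed hearts and 32.6 and 41.4 CPM in the Cre-only hearts and was not called (log2 fold change -2.17 ± 0.37 SE, edgeR adjusted p = 0.222). Socs3, an inhibitor of cytokine signalling (7.32 and 9.77 CPM against 5.54 and 3.81 CPM), Sik1, a salt-inducible kinase (92.04 and 203 CPM against 65.9 and 42.4 CPM), and the stress genes Gadd45b (9.72 and 12.6 CPM against 5.05 and 4.96 CPM) and Gadd45g (36.9 and 39.9 CPM against 7.82 and 16.3 CPM) did not overlap between groups and were not called. Ier3, at 31.5 and 34.2 CPM in the floxed hearts and 17.6 and 33.05 CPM in the Cre-only hearts, overlapped and had the smallest difference of the list.

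Ier2 (chr8:84661331-84662852), a small nuclear regulator, was at 94.8 and 88.2 CPM in the floxed hearts and 22.9 and 12.6 CPM in the Cre-only hearts and fell 5.12-fold (log2 fold change -2.36 ± 0.29 SE, edgeR adjusted p = 0.0271). The related Ier5 (59.1 and 112 CPM against 18.3 and 38.5 CPM) and the nuclear factor Csrnp1 (29.9 and 55.3 CPM against 15.5 and 16.6 CPM) were lower in both Cre-only hearts without being called, and Myc (3.08 and 5.01 CPM against 3.45 and 1.55 CPM) overlapped. Ccn1 (chr3:145646976-145649981), a secreted matricellular protein formerly called Cyr61, was at 348 and 431 CPM in the floxed hearts and 63.4 and 60.9 CPM in the Cre-only hearts. It had the smallest p of all genes and fell 6.26-fold (log2 fold change -2.65 ± 0.17 SE, edgeR adjusted p = 0.00011). Its relative Ccn2, known as connective tissue growth factor, was at 198 and 295 CPM in the floxed hearts and 89.7 and 147 CPM in the Cre-only hearts and was not called (log2 fold change -1.06 ± 0.31 SE, edgeR adjusted p = 0.988). Apold1 (chr6:134981718-134986836), an endothelial early-response gene, was at 116 and 164 CPM in the floxed hearts and 21.1 and 15.1 CPM in the Cre-only hearts and fell 7.70-fold (log2 fold change -2.94 ± 0.33 SE, edgeR adjusted p = 0.0216). Arc, best known from neurons, was at 9.46 and 12.6 CPM in the floxed hearts and 2.66 and 4.51 CPM in the Cre-only hearts and was not called.

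The members varied among themselves. In the floxed pair 27 of the 33 genes were higher in replicate 2, and 5 differed more than 2-fold between the hearts, Atf3 among them. In the Cre-only pair 18 of the 33 were higher in replicate 1, and 11 differed more than 2-fold, including Fos, Egr1 and Junb. Among all genes of at least 10 CPM, a level some members did not reach, 20 of 8147 differed 2-fold or more in the floxed pair. In the Cre-only pair it was 54 of 8148. The share of all genes higher in either replicate was not counted. The calls depended on single hearts to different degrees. Ccn1, Btg2, Jun, Fosb and Egr2 were called whichever of the 4 control hearts was left out, with edgeR adjusted p from 7.15e-05 to 0.041. In the 4 control hearts alone, Ccn1 and Jun kept their calls (edgeR adjusted p = 0.000715 and 0.00148), while Btg2 (0.0682), Fosb (0.252) and Egr2 (0.0605) lost theirs. Egr3 and Jund kept theirs in that fit too (0.0442 and 0.0257), and it added Klf2 and Zfp36. Egr3 lost its call without Cre-only replicate 2 (edgeR adjusted p = 0.0558) and without floxed replicate 2 (0.139). Of the 4 omissions, Apold1 kept its call only without floxed replicate 1, and Ier2 only without Cre-only replicate 1. Jund, Dusp1 and Klf4 lost theirs whichever control heart was left out. Cre-only replicate 1 stood apart in T-cell, proliferation and clock genes. Over genes of at least 10 CPM it was no farther from the floxed hearts than Cre-only replicate 2. Its median absolute log2 differences from floxed replicates 1 and 2 were 0.113 and 0.109 there, against 0.124 and 0.121 for Cre-only replicate 2. Without Cre-only replicate 1 the median log2 fold change of the 33 genes was -1.79.

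The cKO hearts carry both the transgene and the floxed alleles, and they reuse the same controls in any comparison, so their values are set beside the others with nothing read from an overlap. Summed over the list the cKO hearts were at 923 to 1085 CPM, below both Cre-only hearts. In cKO against floxed 27 of the 33 were called lower and none higher (23.1% of all genes were called lower there and 19.8% higher), with a median log2 fold change of -2.14. In cKO against Cre-only 8 were called lower and 4 higher (22.8% and 19.6% of all genes), with a median of -0.45. The 8 lower were Fos, Fosb, Jun, Egr2, Egr3, Btg2, Klf6 and Ccn1. Fos, for example, was at 4.32 to 8.49 CPM in the cKO hearts, and Fosb at 0.789 to 1.48 CPM. The 4 higher were Jund (141 to 166 CPM), Ier2 (25.3 to 39.4 CPM), Gadd45b (7.02 to 10.8 CPM) and Gadd45g (17.9 to 40.3 CPM). For Ier2 and Jund the cKO hearts were thus called lower than one control group and higher than the other. Of the 33 genes, 28 had all 4 cKO hearts below both floxed hearts, 11 had both Cre-only hearts above all 4 cKO hearts, and 5 had both below them. No share of all genes is given beside these counts, and nothing is read from them.

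The other called genes were of mixed kinds. Otud1 (chr2:19657752-19660583), a deubiquitinating enzyme, was at 120 and 223 CPM in the floxed hearts and 25.5 and 24.9 CPM in the Cre-only hearts, with no overlap, and fell 6.80-fold (log2 fold change -2.77 ± 0.29 SE, edgeR adjusted p = 0.0114). It lost its call without Cre-only replicate 1 (edgeR adjusted p = 0.125) and without Cre-only replicate 2 (0.141). Ptgs2 (chr1:150100031-150108227), the inducible cyclooxygenase COX-2 and itself an early-response gene though not on the list, was at 7.24 and 8.94 CPM in the floxed hearts and 2.20 and 1.95 CPM in the Cre-only hearts and fell 3.87-fold (log2 fold change -1.95 ± 0.30 SE, edgeR adjusted p = 0.0459). It lost its call whichever control heart was left out, with edgeR adjusted p from 0.125 to 0.761.

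The last 2 were all-or-none differences at low counts. Rpl35a-ps4 (chr2:108874926-108875258), a processed pseudogene of a ribosomal protein gene, had 163 and 81 estimated counts in the floxed hearts and 0 in both Cre-only and all 4 cKO hearts. Against a floor of 3 counts per library it was at least 36.5-fold lower in the Cre-only hearts (edgeR adjusted p = 0.0234). A second copy of the same length, Rpl35a-ps2, ran the other way, with 0 counts in both floxed hearts and 116 and 105 in the Cre-only hearts, without being called (edgeR adjusted p = 1), though it was called in the 4 control hearts alone (0.00602) and without cKO replicate 1 (0.0243). The parent gene Rpl35a was level, at 103 and 104 CPM in the floxed hearts and 105 and 102 CPM in the Cre-only hearts. Reads of such copies can be split between them by the counting, so the pseudogene values are uncertain. The 1 gene that rose, ENSMUSG00000106852, has no symbol or position in the annotation used. It had 0 counts in both floxed hearts, 36 and 40 in the Cre-only hearts and 8 to 12 in the cKO hearts, which was at least 11.4-fold higher in the Cre-only hearts (edgeR adjusted p = 0.015). Both genes lost their calls whichever control heart was left out, at edgeR adjusted p of 0.085 to 0.155 and 0.0509 to 0.139.

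Outside the immediate early list, 40 further lists with 644 distinct tested genes were examined, and in the fit of all 8 hearts edgeR's quasi-likelihood test called none of them. Among the 644, 17 were higher and 25 lower at an unadjusted p under 0.05, together 6.52% beside 3.44% of all genes. DESeq2 called 7 (Hlf, Bhlhe40, Plk2, Cxcl1, Thbs1, Angptl4 and Ucp1), and limma voom called 0. In the 4 control hearts alone edgeR called 6 of 628 tested (Hlf, Bhlhe40, Plk2 and Cxcl1 lower, Angptl4 and Ucp1 higher), against 0.222% of all genes in that fit, and it called Hlf, Bhlhe40 and Plk2 in the unfiltered table. Leaving out 1 heart brought in Cd4 and Ciart without Cre-only replicate 2, Thbs1 without floxed replicate 1, Cxcl1 without cKO replicate 1, and Hlf and Acta2 without cKO replicate 4. Of all 41 lists, 33 had a median log2 fold change within 0.2 of 0. The 4 beyond 0.5 were the immediate early genes (-1.73), lung and airway markers (-1.55), adipocyte markers (0.77) and proliferating cell markers (0.55).

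**Figure D3:**
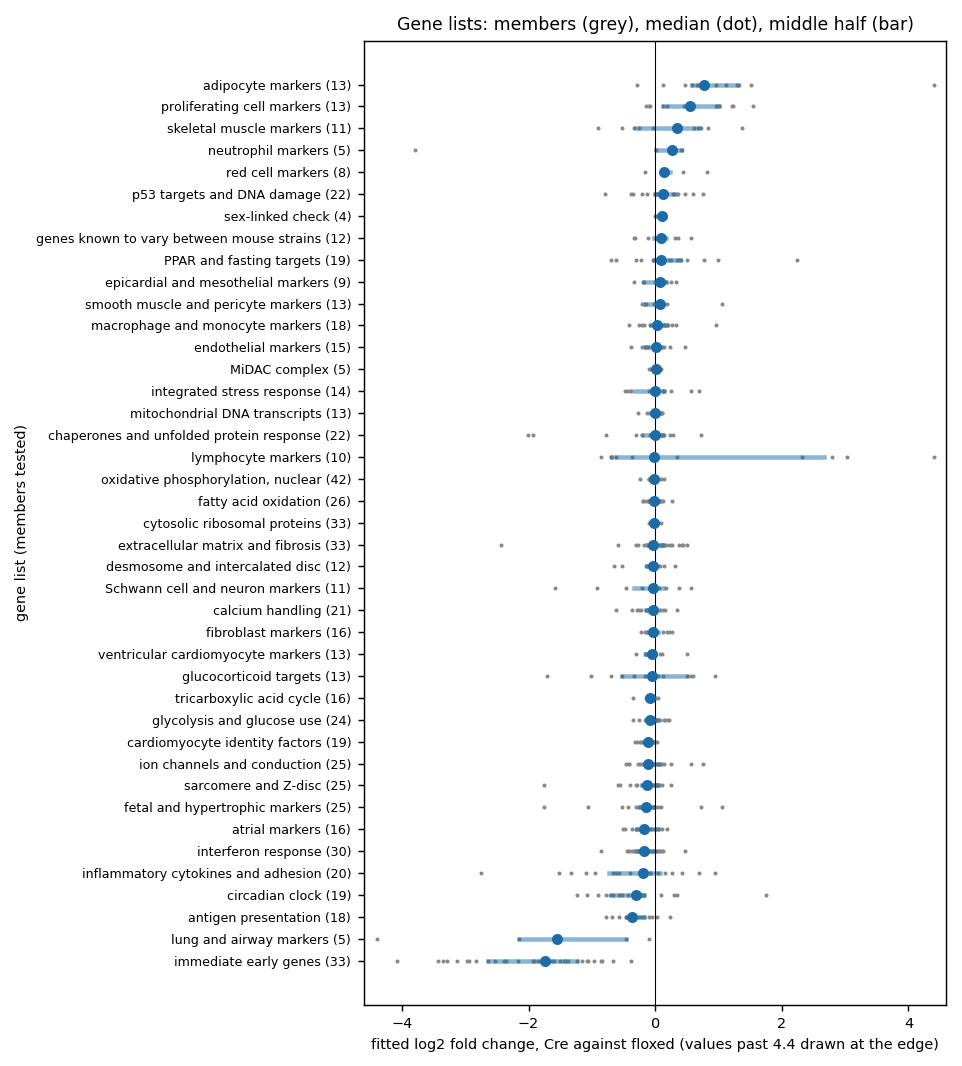
Each row is 1 of the 41 gene lists with its number of members tested; grey points are the members' fitted log2 fold changes in Cre-only against floxed hearts, the large dot the median and the bar the central quartiles. The immediate early list has the lowest median, with 33 members from -4.08 to -0.38, next to the lung and airway list, whose 5 members reach -8.76, while 33 lists have medians within 0.2 of 0.

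The circadian clock sets daily rhythms of transcription in the heart: ARNTL and CLOCK activate the PER, CRY and REV-ERB (Nr1d) genes, which repress them in turn, and output factors such as DBP, TEF and HLF carry the rhythm to other genes. Of 19 clock genes none was called by edgeR's quasi-likelihood test in the fit of all 8 hearts. At an unadjusted p under 0.05, 2 were higher and 6 lower, beside 1.45% and 1.99% of all genes. DESeq2 called Hlf and Bhlhe40 lower, where it called 0.406% of all genes, and limma voom called 0. Of the 19, 15 lay below 0 (median -0.30), beside 50.2% of all genes. The output factor Hlf was at 60.1 and 63.7 CPM in the floxed hearts and 33.05 and 33.4 CPM in the Cre-only hearts, tight pairs that did not overlap (log2 fold change -0.90 ± 0.18 SE, edgeR adjusted p = 0.233). Bhlhe40, a repressor that the clock and many stimuli induce, was at 78.2 and 83.9 CPM in the floxed hearts and 49.8 and 52.8 CPM in the Cre-only hearts, also without overlap (log2 fold change -0.66 ± 0.14 SE, edgeR adjusted p = 0.263). In the 4 control hearts alone both were called lower (edgeR adjusted p = 0.00779 for Hlf and 0.0262 for Bhlhe40), as in the unfiltered table (0.0107 and 0.0386), and Hlf was also called without cKO replicate 4 (0.0343).

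Other clock genes set Cre-only replicate 1 apart. The activator Arntl was at 2.01 and 1.52 CPM in the floxed hearts and 9.60 and 2.30 CPM in the Cre-only hearts, high in that 1 heart. The repressor Per2 was at 25.9 and 28.04 CPM in the floxed hearts and 6.60 and 26.7 CPM in the Cre-only hearts, and the repressor Ciart at 12.4 and 14.9 CPM in the floxed hearts and 2.66 and 9.11 CPM in the Cre-only hearts, both low in it. Dbp (158 and 163 CPM against 63.7 and 124 CPM), Tef (219.5 and 206 CPM against 123 and 194 CPM), Per1 (103 and 161 CPM against 40.7 and 84.3 CPM) and Per3 (55.4 and 54.5 CPM against 28.1 and 46.4 CPM) had their lowest control value in the same heart. Without Cre-only replicate 1 the log2 fold change of Arntl moved from 1.76 to 0.37, that of Ciart from -1.24 to -0.60 and that of Dbp from -0.77 to -0.38. With that heart as the only Cre-only sample, Ciart was called lower (-2.34, edgeR adjusted p = 0.0131). Hlf, by contrast, stayed at -0.91 and -0.88 without either Cre-only heart. With no hour of collection in the labels, a phase difference and a genotype difference cannot be told apart. The E-box CACGTG, which ARNTL and CLOCK bind, was in the promoters of 5 of the 16 clock genes matched to the same RefSeq promoters (31.2%, against 6.04% of all), Ciart and Per1 among them.

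**Figure D4:**
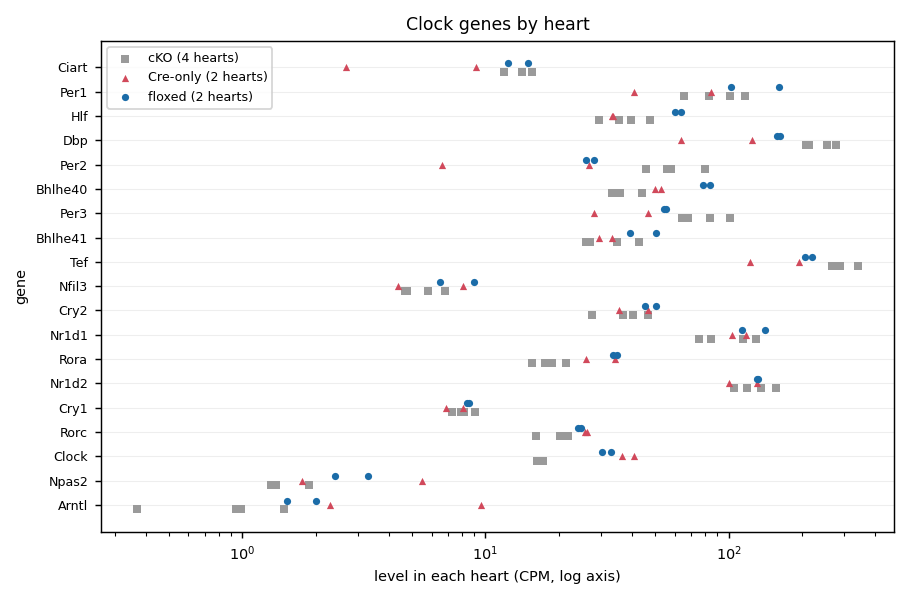
Each row is 1 of the 19 clock genes, ordered by log2 fold change, and each mark is 1 heart's level (CPM, log axis): blue circles floxed, red triangles Cre-only, grey squares cKO. In Ciart, Per2, Per3, Dbp and Arntl 1 of the Cre-only hearts lies far from the other 3 controls, while in Hlf and Bhlhe40 the Cre-only pair is close together and below the floxed pair.

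Stress lists were read next, since many of their genes answer the same signals. Of 22 chaperone genes none was called by edgeR, DESeq2 or voom, and 2 had an unadjusted p under 0.05, beside 3.44% of all genes. They were the heat-inducible Hsp70 genes Hspa1a (41.8 and 65.5 CPM against 8.12 and 20.3 CPM) and Hspa1b (34.5 and 56.1 CPM against 8.08 and 14.6 CPM). These are near-identical copies whose reads may be split between them. Both were lower in each Cre-only heart than in either floxed heart, with log2 fold changes of -1.93 ± 0.67 and -2.01 ± 0.59 SE, and the list's median was -0.01. Among 13 glucocorticoid targets, of which edgeR, DESeq2 and voom called 0, the 2 lowest p values were those of the EGF receptor inhibitor Errfi1 (52.4 and 125 CPM against 27.8 and 26.3 CPM; log2 fold change -1.72 ± 0.48 SE) and the kinase Sgk1 (119.6 and 136 CPM against 54.3 and 72.4 CPM; -1.01 ± 0.41 SE). The list's median was -0.05. Of 14 genes of the integrated stress response none was called by the 3 tools. Its main factor Atf4 (58.3 and 74.1 CPM against 51.1 and 46.6 CPM) was the 1 with an unadjusted p under 0.05, beside 3.44% of all genes.

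The p53 pathway, which answers DNA damage, was of mixed sign. Of 22 targets none was called by edgeR or voom, and DESeq2 called Plk2 lower. At an unadjusted p under 0.05, 2 were higher and 2 lower, beside 1.45% and 1.99% of all genes. In 16 the log2 fold change was above 0 (median 0.12), beside 49.8% of all genes. In 10 both Cre-only hearts lay above both floxed hearts, which held for 17.7% of all genes. Phlda3, an inhibitor of AKT, was at 10.4 and 10.5 CPM in the floxed hearts and 15.9 and 19.5 CPM in the Cre-only hearts and had the largest of these values (log2 fold change 0.76 ± 0.19 SE, edgeR adjusted p = 0.554). Cdkn1a, the cell-cycle inhibitor p21, was at 10.6 and 20.7 CPM in the floxed hearts and 20.1 and 26.99 CPM in the Cre-only hearts, overlapping (log2 fold change 0.59 ± 0.59 SE, edgeR adjusted p = 1). Plk2, a kinase that is both a p53 target and an early-response gene, was at 54.2 and 46.5 CPM in the floxed hearts and 30.6 and 27.4 CPM in the Cre-only hearts, without overlap (log2 fold change -0.80 ± 0.13 SE, edgeR adjusted p = 0.0818), and was called in the 4 control hearts alone (edgeR adjusted p = 0.0445) and in the unfiltered table (0.00377).

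Of 20 cytokine and adhesion genes none was called by edgeR or voom, and DESeq2 called Cxcl1 lower. At an unadjusted p under 0.05, 4 were lower, beside 1.99% of all genes. In 11 both Cre-only hearts lay below both floxed hearts, beside 19.1% of all genes. In 2 both lay above, beside 17.7%. Cxcl1, a neutrophil chemokine, was at 10.4 and 8.40 CPM in the floxed hearts and 1.71 and 1.05 CPM in the Cre-only hearts, without overlap (log2 fold change -2.75 ± 0.61 SE, edgeR adjusted p = 0.438). It was called in the 4 control hearts alone (edgeR adjusted p = 0.00943) and without cKO replicate 1 (0.0257). The monocyte chemokine Ccl7 was at 2.70 and 4.03 CPM in the floxed hearts and 1.37 and 1.30 CPM in the Cre-only hearts (log2 fold change -1.33 ± 0.33 SE, edgeR adjusted p = 0.554). Of 30 interferon-response genes 22 lay below 0 (median -0.17), and of 18 antigen presentation genes 16 did (median -0.37), beside 50.2% of all genes. No member of either was called by the 3 tools, and only Oas1a (2.70 and 3.68 CPM against 1.25 and 2.30 CPM) had an unadjusted p under 0.05. The smallest p among antigen presentation genes were those of the peptide transporter Tap1 (9.89 and 13.5 CPM against 9.64 and 7.96 CPM) and of H2-Q4 (27.3 and 41.9 CPM against 23.8 and 26.7 CPM), both with small differences beside the spread of the floxed pair.

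Cardiac muscle genes did not pass the threshold between the controls, and 89 of 120 lay below 0, where 50.2% of all genes did. None of these 120 distinct genes in 6 lists was called by edgeR or voom, DESeq2 called only Ccn2, which is on the immediate early list too, and 90.8% were within 0.5 of 0 on the log2 scale, beside 87.5% of all genes tested and 97.6% of those at 10 CPM or more. In 44 of the 120 (36.7%) both Cre-only hearts lay below both floxed hearts, beside 19.1% of all genes, and among 25 sarcomere and Z-disc genes in 12. In 10 (8.33%) both lay above, beside 17.7%. Myh6, the adult myosin heavy chain whose promoter drives the transgene, was at 25330 and 23150 CPM in the floxed hearts and 22890 and 24090 CPM in the Cre-only hearts (log2 fold change -0.05 ± 0.17 SE). Myh7, the fetal and stress-induced myosin heavy chain, was at 388 and 209.7 CPM in the floxed hearts and 100.1 and 75.9 CPM in the Cre-only hearts. The groups did not overlap, but the floxed pair was wide, and Myh7 was not called (log2 fold change -1.76 ± 0.77 SE, edgeR adjusted p = 1). A fit with the replicate number as a block called it lower (edgeR adjusted p = 0.00224), though the numbers are not known to pair the hearts. Acta2, smooth muscle actin and a marker of immature or stressed muscle, was at 60.4 and 50.4 CPM in the floxed hearts and 133 and 98 CPM in the Cre-only hearts (log2 fold change 1.06 ± 0.52 SE, edgeR adjusted p = 1), and edgeR called it higher without cKO replicate 4. Tcap, the titin cap of the Z-disc, was at 1298 and 1542 CPM in the floxed hearts and 797 and 1130 CPM in the Cre-only hearts (log2 fold change -0.56 ± 0.20 SE, edgeR adjusted p = 1), and the ventricular light chain Myl3 was at 4653 and 4734 CPM in the floxed hearts and 3606 and 4035 CPM in the Cre-only hearts.

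The 25 ion channel and conduction genes had a median of -0.11, with 1 at an unadjusted p under 0.05, beside 3.44% of all genes. That gene, Kcnj2, the inward rectifier that sets resting potential, was at 35.9 and 38.05 CPM in the floxed hearts and 52.1 and 57.3 CPM in the Cre-only hearts, without overlap (log2 fold change 0.57 ± 0.18 SE, edgeR adjusted p = 1). The pacemaker channel gene Hcn4 was at 12.97 and 14.04 CPM in the floxed hearts and 10.3 and 10.1 CPM in the Cre-only hearts. Of 12 desmosome and intercalated disc genes Ctnna3, which encodes alpha-T-catenin, had the smallest p, at 27.2 and 27.5 CPM in the floxed hearts and 19.2 and 15.8 CPM in the Cre-only hearts (log2 fold change -0.64 ± 0.20 SE, edgeR adjusted p = 0.905), and the actin-binding Xirp1 was lower in both Cre-only hearts (243 and 386 CPM against 204 and 235 CPM). Calcium handling (21 genes, median -0.04) had no member at an unadjusted p under 0.05, and its smallest p were those of the junctional protein gene Jph2 (606 and 559.6 CPM against 443 and 515 CPM) and the channel subunit gene Cacnb2 (64.3 and 65.8 CPM against 53.9 and 58.2 CPM). Cardiomyocyte identity factors (19 genes, median -0.11) had none either, with Gata6 (69.9 and 62.6 CPM against 62.9 and 49.9 CPM) and Nkx2-5 (72.7 and 67.4 CPM against 68.3 and 56.2 CPM) leading. In that list 18 of 19 lay below 0, beside 50.2% of all genes, with the lowest at -0.32.

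Of 168 distinct metabolic and ribosomal genes in 7 lists, edgeR in the fit of all 8 hearts and voom called 0, and DESeq2 and edgeR in the 4 control hearts alone called Angptl4 higher. On the log2 scale 96.4% were within 0.5 of 0, beside 87.5% of all genes tested and 97.6% of those at 10 CPM or more. Both Cre-only hearts lay below both floxed hearts in 43 of the 168 (25.6%) and in 9 of 16 tricarboxylic acid cycle genes, beside 19.1% of all genes. Medians were -0.02 for 26 fatty acid oxidation genes, -0.08 for 16 tricarboxylic acid cycle genes, -0.01 for 42 nuclear oxidative phosphorylation genes and -0.02 for 33 ribosomal protein genes. The ribosomal protein genes stayed between -0.09 and 0.09. For scale, the same 33 were all called higher in cKO against floxed, with a median of 0.88. Angptl4, a PPAR target that inhibits lipoprotein lipase, was at 1.37 and 1.33 CPM in the floxed hearts and 5.995 and 6.81 CPM in the Cre-only hearts, without overlap (log2 fold change 2.24 ± 0.64 SE, edgeR adjusted p = 0.986; 0.0101 in the 4 control hearts alone). Txnip, a glucose-responsive brake on glucose uptake, was at 535 and 812 CPM in the floxed hearts and 448 and 386 CPM in the Cre-only hearts (log2 fold change -0.69 ± 0.20 SE, edgeR adjusted p = 0.8). Idh2, the mitochondrial NADP-dependent isocitrate dehydrogenase, was at 1616 and 1494 CPM in the floxed hearts and 1207 and 1231 CPM in the Cre-only hearts (log2 fold change -0.35 ± 0.15 SE).

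Elmsan1's own complex was even between the controls. Of 5 MiDAC genes tested, edgeR, DESeq2 and voom called 0 and none had an unadjusted p under 0.05. The deacetylase gene Hdac2 was at 45.3 and 48.6 CPM in the floxed hearts and 49.6 and 50.1 CPM in the Cre-only hearts (log2 fold change 0.09 ± 0.12 SE), and the scaffold gene Dnttip1 at 19.6 and 18.8 CPM in the floxed hearts and 17.5 and 18.4 CPM in the Cre-only hearts (-0.10 ± 0.15 SE). Of 33 matrix and fibrosis genes edgeR and voom called 0, and the median was -0.03. At an unadjusted p under 0.05, 2 were lower, beside 1.99% of all genes. Thbs1, which encodes the matricellular protein thrombospondin-1, was at 27.4 and 98.2 CPM in the floxed hearts and 14.99 and 8.16 CPM in the Cre-only hearts, without overlap but with a wide floxed pair, and was called lower by DESeq2 and, without floxed replicate 1, by edgeR (log2 fold change -2.43 ± 0.59 SE, edgeR adjusted p = 0.798 in the fit of all 8 hearts). Timp3, an inhibitor of metalloproteinases, was at 271 and 320.4 CPM in the floxed hearts and 168 and 225 CPM in the Cre-only hearts (log2 fold change -0.59 ± 0.22 SE, edgeR adjusted p = 1).

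Marker lists describe which other cells the hearts held, and in whole-heart RNA fewer cells of a type and less RNA per cell cannot be told apart. No marker of the 15 cell-type lists was called by edgeR in the fit of all 8 hearts or by voom, while DESeq2 and edgeR in the 4 control hearts alone each called 1, Ucp1, higher. Endothelial markers summed to 1579 and 1523 CPM in the floxed hearts and 1512 and 1845 CPM in the Cre-only hearts, and fibroblast markers to 2201 and 2303 CPM in the floxed hearts and 2305 and 1781 CPM in the Cre-only hearts, both overlapping. Macrophage and monocyte markers summed to 256 and 308 CPM in the floxed hearts and 274 and 321 CPM in the Cre-only hearts, overlapping as well. Ventricular cardiomyocyte markers summed to 67890 and 67710 CPM in the floxed hearts and 62210 and 66740 CPM in the Cre-only hearts, the Cre-only hearts slightly lower. Klf2, Klf4 and Apold1 are known from endothelium, whose 15 markers are summed above. Whether the amount of endothelium bears on their differences was not tested. Smooth muscle and pericyte markers summed to 1271 and 1276 CPM in the floxed hearts and 1351 and 1335 CPM in the Cre-only hearts, and atrial markers, which depend on how much atrium a sample holds, to 5003 and 4952 CPM in the floxed hearts and 5505 and 3693 CPM in the Cre-only hearts.

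In 11 of 13 adipocyte markers both Cre-only hearts lay above both floxed hearts, which held for 17.7% of all genes. The 13 summed to 382 and 375 CPM in the floxed hearts and 479.8 and 691 CPM in the Cre-only hearts, with 718 to 1568 CPM in the cKO hearts. Ucp1, the uncoupling protein of brown fat, was at 0.214 and 0 CPM in the floxed hearts and 20.2 and 27.6 CPM in the Cre-only hearts and 0.691 to 79.8 CPM in the cKO hearts (log2 fold change 7.64 ± 3.27 SE, edgeR adjusted p = 1). In the 4 control hearts alone its log2 fold change was 7.65 with an edgeR adjusted p of 0.00779. Pparg, the master regulator of fat cells, was at 4.97 and 4.22 CPM in the floxed hearts and 5.81 and 7.96 CPM in the Cre-only hearts (log2 fold change 0.57 ± 0.25 SE, edgeR adjusted p = 1). Angptl4, which fat also makes, differed in the same direction as these markers, and their part in its difference was not tested. T-cell genes were high in Cre-only replicate 1 alone, with Cd4 at 0.599 and 0.982 CPM in the floxed hearts and 6.72 and 1.05 CPM in the Cre-only hearts and Cd8a at 0.171 and 0 CPM in the floxed hearts and 6.98 and 0.351 CPM in the Cre-only hearts. With that heart as the only Cre-only sample, edgeR called Cd4 higher. All lymphocyte markers summed to 10.6 and 22.8 CPM in the floxed hearts and 30.5 and 9.27 CPM in the Cre-only hearts, which overlapped. Proliferation genes were highest among the controls in the same library: Mki67 was at 4.11 and 3.24 CPM in the floxed hearts and 9.41 and 5.31 CPM in the Cre-only hearts (log2 fold change 1.01 ± 0.34 SE, edgeR adjusted p = 1) and Top2a at 1.80 and 2.31 CPM in the floxed hearts and 6.38 and 3.06 CPM in the Cre-only hearts (log2 fold change 1.21 ± 0.42 SE, edgeR adjusted p = 1). The airway secretory gene Scgb1a1 was at 0.171 and 23.7 CPM in the floxed hearts and 0 and 0.0501 CPM in the Cre-only hearts, high in floxed replicate 2 alone, and the lung gene Sftpc was at 0 in all 4 controls.

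**Figure D5:**
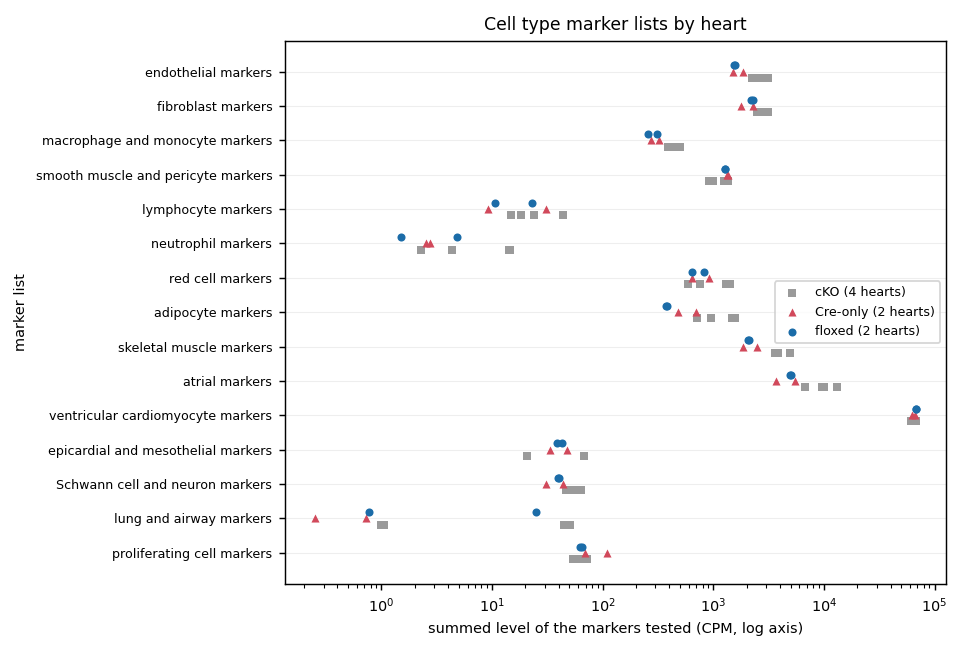
Each row is 1 of the 15 cell-type marker lists and each mark the summed level of its tested markers in 1 heart (CPM, log axis): blue circles floxed, red triangles Cre-only, grey squares cKO. The controls lie close together or overlap in most rows; adipocyte markers are higher in both Cre-only hearts, proliferation markers highest in 1 of them, and lung markers high in 1 floxed heart.

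A floxed allele or a transgene can bring flanking sequence from the strain it was made in, so genes near both loci were counted. Within 5 Mb of Elmsan1 96 genes were tested, edgeR and voom called 0, and the median log2 fold change was 0.00. An unadjusted p under 0.05 was reached by 5 of the 96, beside 3.44% of all genes. Among them was Fos, which lies 1.32 Mb from Elmsan1 on chromosome 12 and which DESeq2 called lower. The others were Zc2hc1c, Irf2bpl, Fam161b and Gm28370. Within 5 Mb of Myh6 116 genes were tested, edgeR, DESeq2 and voom called 0, and 2 had an unadjusted p under 0.05. The fit with the replicate number as a block called Myh7 there. Where the transgene inserted is not given here. Called genes were spread over many chromosomes, no more than 2 on any. Whether flanking sequence bears on any of these values was not tested. Of 12 genes known to vary between mouse strains, edgeR, DESeq2 and voom called 0, and the smallest p values were those of Wdfy1, at 19.4 and 18.7 CPM in the floxed hearts and 28.1 and 28.4 CPM in the Cre-only hearts without overlap (log2 fold change 0.57 ± 0.13 SE, edgeR adjusted p = 0.404), and Ide (108 and 83.6 CPM against 77.8 and 74.3 CPM).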

How the data were processed

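RNA-seq of whole hearts from 8 mice was analysed. The authors deposited estimated counts for 45706 Ensembl gene identifiers; 71.95% to 76.34% of values above 0 were whole (tolerance 1e-06), and no column was left out. Builds mm10 and GRCm38 and the tools STAR 2.5.1b and DESeq2 come from the submitters' processing notes. The sources used here give no counting program, annotation or strand setting, so values of overlapping, antisense and near-identical genes are uncertain.

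Because the values were estimated counts and not the whole counts the plan had assumed, they were rounded. Names and positions come from GENCODE M21, where 563 identifiers had no symbol, 73 of them tested. After filterByExpr 15289 genes were tested; 21474 had 0 counts in every library. All 8 libraries (17509564 to 25833259 counts) were fitted with 3 group means (5 residual degrees of freedom), TMM scaling and robust dispersion in edgeR 4.0.16 (R 4.3.3), using the quasi-likelihood test with Benjamini-Hochberg adjustment. Nothing in the labels says how far the hearts of a group were independent beyond being separate samples, so p-values measure only the spread between them. DESeq2 1.42.0, limma voom 3.58.1, other scalings, filters, samples and an offset for length and GC content were alternatives. The test was checked on simulated data.

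The genes and lists were chosen with earlier results of these data known. All called genes were named, and most members with the 2 smallest p values of a list without a call; further list members and neighbours were named after their values were seen. Promoter sequences are RefSeq's on GRCm38.p6.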

Additional observations from a re-analysis of the deposited data

How the results depend on the processing

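The number of genes called moved with the tool, the samples and the filter, while the sign of the immediate early median held in all 19 alternatives (-1.97 to -1.58). DESeq2 called 62 genes (8 higher, 54 lower) and 23 immediate early genes lower. The unfiltered table gave 31 (3 higher, 28 lower), and limma voom called 2 higher. The 4 control hearts alone gave 32 (11 higher, 21 lower) and 6 immediate early genes. Upper-quartile scaling called 9 genes lower and 7 immediate early genes, and a mean of at least 1 CPM left 0 genes called higher by edgeR. The fit with the replicate number as a block called 84 genes (18 higher, 66 lower) and 22 immediate early genes, with 15 of the 644 genes of the other lists, although the numbers are not known to pair the hearts (correlation of their deviations -0.0234 over 13203 genes). Leaving out 1 library at a time gave 7 to 18 calls, 0 to 3 higher and 6 to 16 lower, and 5 to 10 immediate early genes; the lowest total came without floxed replicate 2, and a heart left alone in its group is assumed to vary like the others. The cause of these moves was not tested. The near-zero difference of Elmsan1 changed sign without Cre-only replicate 1 and without floxed replicate 2, ranging from -0.0887 to 0.13 with 1 library left out, and that of Myh6, from -0.0967 to 0.0122, without floxed replicate 1. Of 777 list medians over all settings, 707 stayed within the spread between hearts and 70 did not; the neutrophil list at 1 CPM and the lung list in the 4 control hearts gave no value. With 2 hearts a group, the common dispersion was 0.0266 over the 8 libraries and 0.0119 in the 4 controls.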

Other observations

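The genes nearest the threshold that were not called, picked by p after their values were seen, were of several kinds, and other fits called some of them. Dmd, which encodes dystrophin, was at 91.1 and 85.6 CPM in the floxed hearts and 54.6 and 55.4 CPM in the Cre-only hearts, without overlap (log2 fold change -0.68 ± 0.13 SE, edgeR adjusted p = 0.156), and was called lower by DESeq2 (adjusted p = 0.00186), in the 4 control hearts alone (edgeR adjusted p = 0.0162) and in the unfiltered table (0.0172). Klhdc7a, a kelch-domain gene, was at 7.45 and 5.16 CPM in the floxed hearts and 20.9 and 24.6 CPM in the Cre-only hearts, higher in both Cre-only hearts (log2 fold change 1.85 ± 0.32 SE, edgeR adjusted p = 0.146), and was called higher by DESeq2 (adjusted p = 1.13e-05), by limma voom (adjusted p = 0.0495) and in the 4 control hearts alone (edgeR adjusted p = 0.0101). Nfkbiz, an atypical inhibitor of NF-kappaB, was at 11.3 and 17.6 CPM in the floxed hearts and 5.995 and 3.96 CPM in the Cre-only hearts, without overlap (log2 fold change -1.53 ± 0.28 SE, edgeR adjusted p = 0.156), and at 6.47 to 10.1 CPM in the cKO hearts. DESeq2 called it lower (adjusted p = 0.000317), as did edgeR in the unfiltered table (0.00951), but not in the 4 control hearts alone (0.313). Ppp2r3a, a phosphatase subunit gene, was at 309 and 321 CPM in the floxed hearts and 223 and 194 CPM in the Cre-only hearts, and Sertad1, a cell-cycle regulator, at 12.2 and 17.3 CPM in the floxed hearts and 6.75 and 6.51 CPM in the Cre-only hearts, and DESeq2 called both lower (adjusted p = 0.000279 for Ppp2r3a and 0.00327 for Sertad1).

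Other all-or-none values at low counts, also chosen after they were seen, were not called in the fit of all 8 hearts and are uncertain where genes overlap or have copies. Gm10031 had 32 and 39 estimated counts in the floxed hearts and 0 in the Cre-only and cKO hearts, and was called by DESeq2 (adjusted p = 0.00316), by limma voom (0.0104) and in the 4 control hearts alone (0.0429). Gm20458 had 117 and 115 in the floxed hearts, 0 in the Cre-only hearts and 37 in 1 cKO heart, and was called in the 4 control hearts alone (edgeR adjusted p = 0.00512). Gm2004 had 0 in the floxed hearts and 30 and 36 in the Cre-only hearts, and DESeq2 called it higher (adjusted p = 0.0069). Zbed6, which lies within another gene, had 0 in the floxed hearts, 52 and 99 in the Cre-only hearts and 106 in 1 cKO heart, and none of the alternatives run called it.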
